A study of Mus musculus with 6 samples.

Results

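Of the 651 genes in the deposited tables of differentially expressed genes, 7 encode proteins by which lymphocytes kill other cells or lectin-like receptors that killer lymphocytes carry. They were chosen by gene name and were the granzymes Gzmb and Gzmk, the pore-forming protein gene Prf1, the granule membrane protein gene Nkg7, and the killer cell lectin-like receptor genes Klrd1, Klre1 and Klrg1. RNA was sequenced from GFP+ cells sorted from mammary glands of pregnant NSG hosts, with 3 WT.GFP+ samples and 3 ERα-/-.GFP+ samples. The mammary epithelial cells (MECs) came from WT.GFP+ and ERα-/-.GFP+ littermates in the C57Bl6 background and reached contralateral glands by injection into the ducts. Both genotypes carried an Act-EGFP transgene, in which an actin promoter drives GFP, so that GFP marks donor cells but not a cell type. The sorted GFP+ cells are called MECs below, as in the study. The name does not say which of the sorted cells made a transcript. The hosts carry the Prkdc scid and Il2rg mutations, which leave mice without mature T, B and NK cells of their own. For cell suspensions the glands were pooled. The flow cytometry methods list an antibody to the leukocyte antigen CD45, while the sort for sequencing is described by GFP alone. The ages of donors and hosts are not given in the sources used here.

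Killer lymphocytes, which are NK cells and activated CD8 T cells, store granzymes and perforin in secretory granules. On contact with a target cell the granules are released, perforin opens pores in the target membrane, and granzymes pass into the target and cleave its proteins. Lectin-like receptors encoded in the NK gene complex read ligands on the target and tune this release. A mammary gland holds such lymphocytes within and around its ducts in addition to epithelial cells.

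The deposited tables hold only genes that passed the authors' thresholds, and give each gene only group averages made by the authors. The spread between samples is therefore not given, and every difference between genotypes below is a description without a test. The intervals given are 95% exact intervals for counting error only, from the reads summed over the 3 samples of a genotype, and reads from PCR are not independent molecules. Depth, taken as mean count over mean CPM (reads of a gene scaled to library size), was 27190483 reads in the WT.GFP+ and 29326709 in the ERα-/-.GFP+ group. The columns name the genotypes only as selections, and the match to the genotypes rests on the direction that the study states. The name of the table that holds the 7 genes calls them down-regulated without saying in which genotype, which is the opposite of their direction under this match. The targeted gene, Esr1, was in neither table and could not check it.

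All 7 genes had higher means in ERα-/-.GFP+ than in WT.GFP+ MECs. Of all 651 listed genes, 13.1% were higher in ERα-/-.GFP+ MECs, and the 7 genes were picked in the knowledge of their direction, so their count is no result about them. Together they took 0.224% of the reads in WT.GFP+ MECs against 0.512% in ERα-/-.GFP+ MECs. Their log2 ratios of ERα-/-.GFP+ over WT.GFP+, from mean counts scaled for depth, ran from 1.03 to 1.45, with a median of 1.25 or 2.37-fold. Over the 634 listed genes with reads in both genotypes the median log2 ratio was −1.63, and over the 77 higher genes that reached a mean count of 100 in each genotype (called well-counted here) it was 1.05. In these sorted bulk samples, more cells that express these genes and more RNA per cell cannot be told apart.

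**Figure D1:**
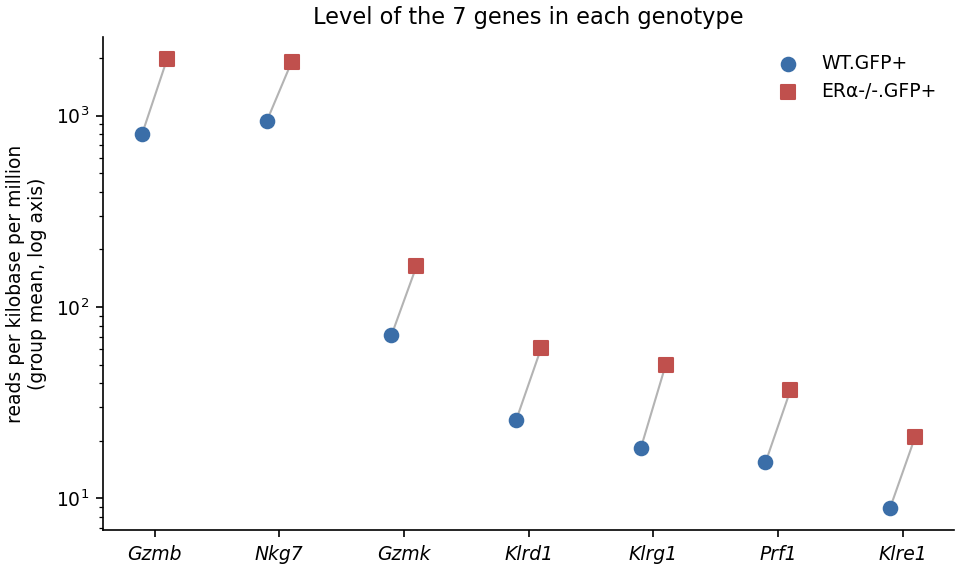
Group mean level of the 7 genes, in RPKM (reads scaled for exon length and depth) on a log axis, with circles for WT.GFP+ and squares for ERα-/-.GFP+ MECs; no error bar is drawn because only group means were at hand. Gzmb and Nkg7 lie at 802 and 936 in WT.GFP+, and Gzmk, the next gene, at 71.1.

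Gzmb encodes granzyme B, a protease that cleaves after aspartate and activates caspases in the target cell. The authors' mean count was 31309 reads in WT.GFP+ MECs (counting interval 31109 to 31510) against 83015 in ERα-/-.GFP+ MECs (82690 to 83342). Gzmb was thus 2.46-fold higher in ERα-/-.GFP+ MECs, with a counting interval of 2.44 to 2.48. No listed gene had a higher mean count in ERα-/-.GFP+ MECs, where Gzmb alone made up 0.283% of the reads, and in WT.GFP+ MECs it was at position 3 of the 651 genes. Among the reads of the 85 higher genes, Gzmb held 12.7% in WT.GFP+ MECs against 14.7% in ERα-/-.GFP+ MECs.

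Gzmk encodes granzyme K, a protease that cleaves after basic residues. Its mean count was 2687 reads in WT.GFP+ MECs against 6636 in ERα-/-.GFP+ MECs, which is 2.29-fold higher (counting interval 2.23 to 2.35). The ratios of Gzmb and Gzmk differed by more than their counting intervals allow, with log2 ratios of 1.30 (1.29 to 1.31) and 1.20 (1.16 to 1.23), but whether they differed beyond the spread between samples was not tested. The other granzymes of a list of 10, which are Gzma, Gzmc, Gzmd, Gzme, Gzmf, Gzmg, Gzmm and Gzmn, were in neither table. A gene in neither table may have changed by less than the authors' thresholds, and its level was not analysed here.

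Prf1 encodes perforin, the pore-forming protein that lets granzymes into the target cell. Its mean count was 1081 reads in WT.GFP+ MECs (1044 to 1119) against 2783 in ERα-/-.GFP+ MECs (2723 to 2843). The ratio was 2.39-fold with a counting interval of 2.29 to 2.49, which overlaps that of Gzmb.

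Nkg7 encodes a membrane protein of cytotoxic granules that takes part in their release. Its mean count was 23269 reads in WT.GFP+ MECs against 51237 in ERα-/-.GFP+ MECs, the second highest count of any listed gene there. The ratio of Nkg7, 2.04-fold (counting interval 2.02 to 2.06), was the lowest of the 7 genes and lay apart from that of Gzmk, the gene next to it in order. Gzmb and Nkg7 together held 89.8% of the reads of the 7 genes in WT.GFP+ MECs against 89.4% in ERα-/-.GFP+ MECs. Among 17 other genes of granule content and release, which include the granzyme-processing cathepsin gene Ctsc and the release factors Rab27a and Unc13d, 1 was listed. This was Serpinb9b, from the serpin family that holds the granzyme B inhibitor, with mean counts of 1120 in WT.GFP+ MECs against 2353 in ERα-/-.GFP+ MECs and a log2 ratio of 0.96 (0.90 to 1.02).

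Klrd1 encodes CD94, which pairs with NKG2 proteins to read the non-classical MHC molecule Qa-1. Its mean count was 892 reads in WT.GFP+ MECs against 2283 in ERα-/-.GFP+ MECs, or 2.37-fold higher (2.27 to 2.48). Klre1 encodes a receptor chain that pairs with the products of Klri1 and Klri2. Its mean count was 848 reads in WT.GFP+ MECs against 2142 in ERα-/-.GFP+ MECs, or 2.34-fold higher (2.24 to 2.45). The counting intervals of these receptors overlapped each other and that of Prf1.

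Klrg1 encodes an inhibitory receptor for cadherins, known as a marker of differentiated effector lymphocytes. Its mean count was 703 reads in WT.GFP+ (674 to 734), the lowest of the 7 genes, and 2071 in ERα-/-.GFP+ MECs (2020 to 2123). The ratio was the highest of the 7 genes at 2.73-fold, and its counting interval of 2.60 to 2.87 lay apart from that of Gzmb, the next in order. Between Gzmb and Gzmk, the order was Prf1, Klrd1 and Klre1, and the counting intervals of neighbours in this stretch overlapped. Other killer cell lectin-like receptors of a list of 28, including Klrk1, Klrc1, Klrc2, Klri1, Klri2 and the Ly49 genes with Klra symbols, were in neither table, which makes 25 of 28. Of the ligands, H2-T23, which encodes Qa-1, and the cadherin genes Cdh1, Cdh2 and Cdh4 were in neither table.

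**Figure D2:**
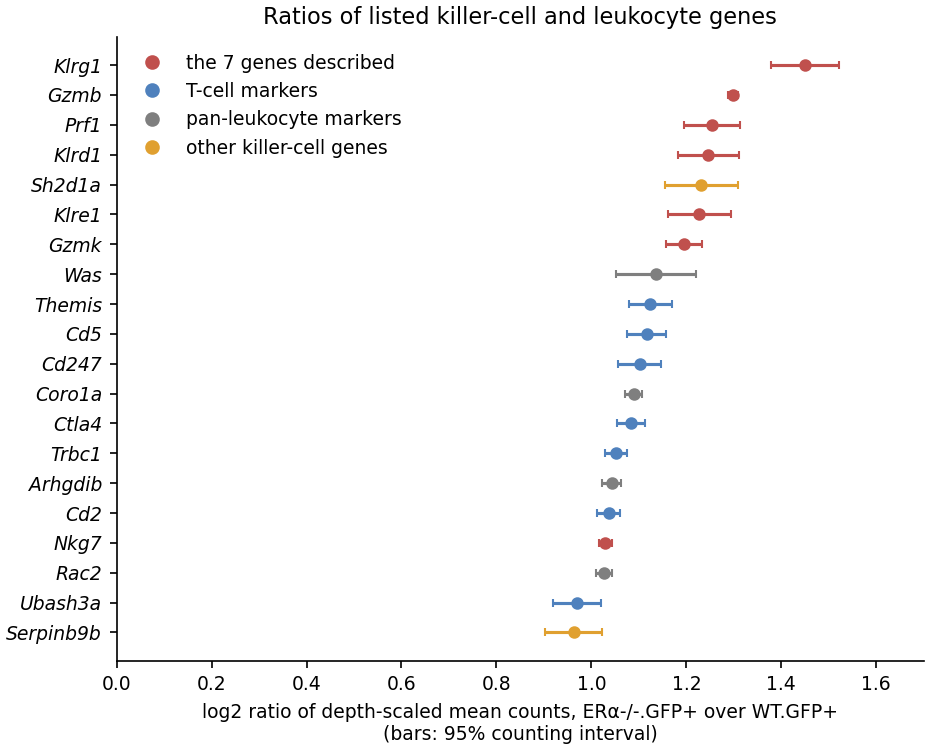
Log2 ratio of depth-scaled mean counts, ERα-/-.GFP+ over WT.GFP+ MECs, for the 7 genes and the higher genes of the leukocyte and killer-cell lists; bars are 95% counting intervals and do not show the spread between samples. Klrg1 lies highest at 1.45, and Nkg7 at 1.03 lies among the T-cell and pan-leukocyte markers.

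Levels of different genes were compared per kilobase of annotated exon and corrected for depth (RPKM). In ERα-/-.GFP+ MECs, Gzmb was at 1971 RPKM, Nkg7 at 1912 and Gzmk at 163. The lectin-like receptors Klrd1 and Klrg1 followed at 60.8 and 50.0 RPKM, then Prf1 at 36.7 and Klre1 at 20.9. The order in WT.GFP+ MECs was the same except that Nkg7, at 936 RPKM, lay above Gzmb, at 802. Neighbours in both orders lay apart by counting error alone, but the order of Gzmb and Nkg7 in ERα-/-.GFP+ MECs turned when the length of the longest transcript or the normalised means were used. For scale, the basal keratin gene Krt14 was at 334 RPKM in WT.GFP+ MECs against 98.9 in ERα-/-.GFP+ MECs, below Gzmb in both, and the smooth-muscle actin gene Acta2 was at 1212 and 317.

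The genes lie at separate loci of the GRCm38 assembly (GENCODE M21), all as protein-coding genes. Klre1, on chromosome 6 from 129577905 to 129585827, and Klrd1, from 129591782 to 129598775, are neighbours on the same strand with 5954 bases between them. The next gene of the family on the other side of Klrd1, Klrk1, lies 11547 bases away and was in neither table. Of the 27 annotated genes of the receptor list, all on chromosome 6, 25 lie from Klrb1a to Klra2, and Klre1 and Klrd1 were the ones among these 25 that were listed. Klrg1, on chromosome 6 from 122270596 to 122282882, lies 6326344 bases before Klrb1a. Gzmb lies on chromosome 14 from 56258838 to 56262260 at the end of a row of 7 granzyme genes, 24181 bases from Gzmc. Gzmk lies on chromosome 13 from 113171608 to 113225908, 70626 bases from Gzma. Prf1 lies on chromosome 10 from 61297833 to 61304680 and Nkg7 on chromosome 7 from 43437073 to 43438249.

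Reads of related genes could in principle be split between family members by the counting. None of the 7 genes shared an identical stretch of 85 bases with a transcript of another gene in either orientation, at 0% of between 907 and 3655 such stretches per gene. This is the length of the reads before adaptors were trimmed. Shorter reads and alignment with mismatches were not covered by this search, so a split of reads was not tested in full. Of overlapping genes, Gzmk spans Esm1 on the opposite strand, and their exons share 0 bases.

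RefSeq windows of 250 bases before a transcript start were at hand for 5 of the 7 genes, in 6 windows, all but Klrd1 and Klrg1. The stretches for Gzmb, Prf1 and Nkg7 are shown because these genes carry the granule arm of the set and their windows reach beyond the annotated gene, which those of Gzmk and Klre1 do not, and they end before the first base that RefSeq or GENCODE annotates to the gene, whichever comes first. They are on GRCm38.p6, at chr14:56262335-56262584 on the minus strand for Gzmb, chr10:61297586-61297750 on the plus strand for Prf1 and chr7:43436888-43437072 on the plus strand for Nkg7. Capitals mark matches to the RUNX motif TGTGGT, the AP-1 motif TGANTCA or the ETS motif AGGAAG on either strand.
Gzmb: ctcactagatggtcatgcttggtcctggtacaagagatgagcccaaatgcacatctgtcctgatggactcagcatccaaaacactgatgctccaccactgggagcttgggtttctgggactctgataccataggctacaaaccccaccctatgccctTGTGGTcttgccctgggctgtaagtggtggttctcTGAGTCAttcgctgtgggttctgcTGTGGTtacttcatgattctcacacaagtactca
Prf1: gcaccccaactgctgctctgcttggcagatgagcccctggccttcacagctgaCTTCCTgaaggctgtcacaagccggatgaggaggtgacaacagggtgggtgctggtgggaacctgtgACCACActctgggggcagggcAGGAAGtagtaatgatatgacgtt
Nkg7: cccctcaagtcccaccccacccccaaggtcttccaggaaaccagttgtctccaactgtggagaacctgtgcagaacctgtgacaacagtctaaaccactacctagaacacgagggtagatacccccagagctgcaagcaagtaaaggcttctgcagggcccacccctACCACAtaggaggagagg

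RUNX factors, which act in T and NK cells, bind the letters TGTGGT, and these letters stood in the windows of Gzmb at 2 places, and of Prf1, Nkg7 and the first of the pair for Klre1 at 1 place each. Of all 32851 RefSeq windows, 4614 held them. The AP-1 letters, which Batf and Jun proteins bind, stood in the window of Gzmb, against 6.75% of all windows. The T-box letters AGGTGTGA, read by T-bet and Eomes, stood in the window of Nkg7, against 1.12%, and the ETS letters in those of Prf1, Nkg7 and Klre1, against 29.5%. The T-box and ETS matches of Nkg7 lie past the end of the printed stretch, within the annotated gene. The oestrogen response element that ERα binds, GGTCA and TGACC with 3 bases between them, matched in 0 of the 6 windows and in 0.0639% of all windows. Its arm GGTCA stood in the windows of Gzmb, Gzmk and Prf1, where it overlaps the RUNX letters in Prf1, against 35.2%. The STAT letters TTCNNNGAA stood in the window of Nkg7 (7.02% of all windows) and the NFAT letters GGAAA in those of Nkg7 and Klre1 (55.6%). The TATA box TATAAA (12.4% of all windows), the interferon-stimulated response element, GAAA repeated after 2 bases (2.98%), and the cAMP response element TGACGTCA (1.55%) stood in none of the 6 windows. These matches are letters in short windows and were not tested as binding sites. The motifs were chosen after their matches were seen, so the shares over all windows cannot show an excess of matches.

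Markers of T cells and of leukocytes at large were also among the higher genes. Not every listed immune gene was higher. The interleukin pathway genes Il23r and Il17f, outside the lists below, were lower in ERα-/-.GFP+ MECs. Their mean counts were 113 and 27.3 reads in WT.GFP+ MECs against 20.3 and 3.67 in ERα-/-.GFP+ MECs. Of a list of 22 T-cell markers, 7 were listed, all as higher, Cd2, Cd5, Cd247, Ctla4, Themis, Trbc1 and Ubash3a, with log2 ratios from 0.97 to 1.12 and a median of 1.08. Their summed level was 939 CPM in WT.GFP+ MECs against 1964 in ERα-/-.GFP+ MECs. The other 15 T-cell markers, which include Cd3d, Cd3e, Cd3g, Trac, Cd4, Cd8a, Lck and Zap70, were in neither table. Of 10 pan-leukocyte markers, Arhgdib, Coro1a, Rac2 and Was were listed as higher, with log2 ratios from 1.03 to 1.14 and a summed level of 1295 CPM in WT.GFP+ MECs against 2689 in ERα-/-.GFP+ MECs. The other 6, among them Ptprc, which encodes CD45, were in neither table. Of all 651 listed genes, 13.1% were higher. Both lists were chosen with earlier results known, so these counts are no result about T-cell or leukocyte genes. Of 6 defining NK-cell markers, Ncr1, Klrb1c, Klra4, Klra8, Klra9 and Eomes, 0 were in the tables. Of 20 receptors and adaptors of killer cells, which include Il2rb, Tyrobp and Fcgr3, 1 was listed, Sh2d1a, which encodes the adaptor SAP of T and NK cells, with mean counts of 637 and 1612 and a log2 ratio of 1.23. The part of a changed share of lymphocytes in the differences of the 7 genes was not tested.

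The lists of 9 death ligands and cytokines, among them Fasl and Ifng, and of 8 transcription factors of killer cells, among them Tbx21, Runx3 and Prdm1, had 0 genes in the tables. The same held for 5 B-cell and 7 myeloid markers. Mast cells also make granzyme B, and of 6 mast-cell markers 1 was listed, the chymase gene Cma1, which was lower in ERα-/-.GFP+ MECs at 9.67 reads against 48. Among epithelial markers, 7 of 7 basal genes were lower, with summed levels of 4897 CPM in WT.GFP+ MECs against 1284 in ERα-/-.GFP+ MECs. Of all 651 listed genes, 566 were lower. The basal list was also chosen with earlier results known, so this count is no result about basal genes. Of 9 luminal genes, Krt8, Krt18 and Epcam among them, 0 were in either table.

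The 7 genes were also set against leukocyte reads of the same libraries, which needs no estimate of depth. The reference genes were themselves listed as higher on the same contrast, so that ratios near 1 follow from their choice. Per 100 reads of the 4 listed pan-leukocyte genes, Gzmb had 88.9 reads in WT.GFP+ MECs against 105 in ERα-/-.GFP+ MECs, a ratio of 1.18 (counting interval 1.17 to 1.19). Klrg1 had 2.00 and 2.63 reads, a ratio of 1.31 (1.25 to 1.38). Prf1, Klrd1, Klre1 and Gzmk had ratios of 1.15, 1.14, 1.13 and 1.10, and their counting intervals lay above 1. Nkg7 had 66.1 and 65.0 reads, a ratio of 0.983 (0.974 to 0.992). Against the 7 listed T-cell genes the ratios were close to these, with 1.18 for Gzmb, 1.31 for Klrg1 and 0.977 for Nkg7. From the authors' normalised means, an alternative added after the data were seen, the ratios to the pan-leukocyte genes were 1.13 for Gzmb and 1.21 for Klrg1, and that of Nkg7 turned to 1.03. The place of Nkg7 below or above the leukocyte genes therefore depends on the mean used. Whether these ratios exceed the spread between samples was not tested.

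**Figure D3:**
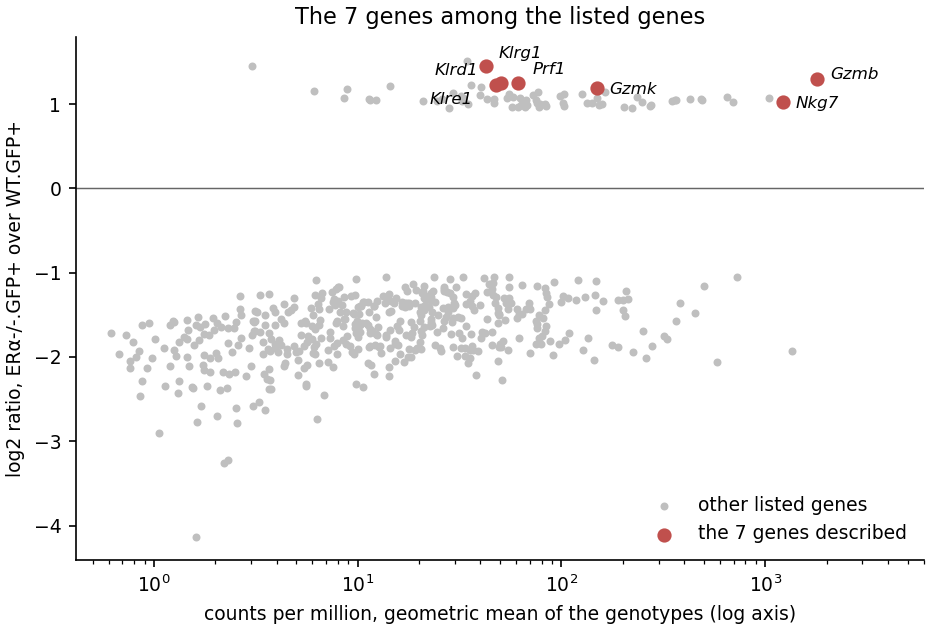
Log2 ratio of ERα-/-.GFP+ over WT.GFP+ MECs against mean CPM on a log axis for the 557 listed genes with at least 10 mean reads in each genotype, with the 7 genes in red; the band around 0 is empty because the tables hold only genes past a fold threshold. Gzmb and Nkg7 lie at the right end of the upper band, and Klrg1 near its upper edge.

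Ranked by ratio among the 77 well-counted higher genes, 6 of the 7 genes were within the first 10 positions, Klrg1 at 2, Gzmb at 3, Prf1 at 4, Klrd1 at 5, Klre1 at 7 and Gzmk at 10. Nkg7 was at position 50. By the differences of the normalised means, 5 of the 7 genes were within the first 10 positions, with Gzmb at 8, Gzmk at 12 and Nkg7 at 30. The first position belonged to Tnfsf8, which encodes the CD30 ligand of activated lymphocytes, with mean counts of 551 and 1700 and a log2 ratio of 1.52. These positions describe genes that the tables had already selected on the same contrast, and they were not tested. The 5 other genes with a ratio nearest the median of the 7, among genes whose mean count reached 100 in each genotype, were Sh2d1a, the peptidoglycan recognition gene Pglyrp2, the AP-1 factor gene Batf, Gm5255 and the costimulatory gene Cd80. Their log2 ratios of 1.23, 1.22, 1.20, 1.18 and 1.15 lay within 0.10 of that median, a likeness over 2 group means only. In mean count in ERα-/-.GFP+ MECs, the higher gene next below Gzmb outside the 7 was AW112010 at 44392 reads, and Klrg1 lay between Ncf4 at 2301 and Gm19585 at 1984.

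The authors' normalised means gave a second view of the same genes. They were read here as averages of log2 CPM over the samples of a genotype, which their column names do not state. In WT.GFP+ and ERα-/-.GFP+ MECs these means were 10.16 and 11.39 for Gzmb, 9.72 and 10.83 for Nkg7, and 4.69 and 6.03 for Klrg1. Their differences ran from 1.11 for Nkg7 to 1.34 for Klrg1. The log of the mean exceeds the mean of the logs more the further samples of a genotype lie apart, although unequal depths of the samples also enter this gap. The depth estimate fixes the level from which the gaps of a genotype are counted. The sign of a gap therefore has no meaning of its own, and only its place among other genes is described. In ERα-/-.GFP+ MECs the gap was 0.11 on the log2 scale for Klrg1 and 0.07 for Gzmb, the highest among the 77 well-counted higher genes, whose median was −0.04. The highest gap outside the 7 genes was 0.04. For Prf1 and Klrd1 the gap was −0.03 in both cases, for Klre1 −0.02 and for Gzmk −0.01, near the median. Nkg7, at −0.06, was at position 55 of the 77 genes. In WT.GFP+ MECs the gaps of the 7 genes lay between −0.02 and 0.02, and those of all 77 genes between −0.026 and 0.026. Nkg7 was there at position 3, Gzmb at 6, Klre1 at 7 and Klrg1 at 13. Gzmk was at position 42, Prf1 at 55 and Klrd1 at 59. With the normalised means, Gzmb moved in the order of ratios from behind Klrg1 to between Klre1 and Gzmk.

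**Figure D4:**
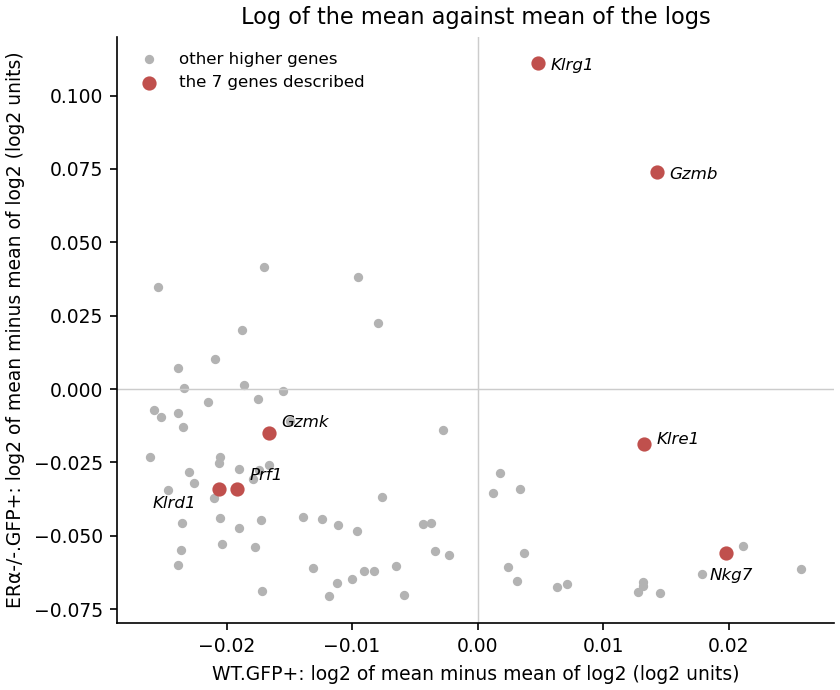
Log2 of the depth-scaled mean count minus the authors' normalised mean, for the 77 well-counted higher genes, with the 7 genes in red. WT.GFP+ is on the horizontal and ERα-/-.GFP+ MECs on the vertical axis. The normalised mean was read as a mean of log2 CPM. Klrg1 at 0.11 and Gzmb at 0.07 lie above all others in ERα-/-.GFP+ MECs, and the other 5 of the 7 genes lie within the rest.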

How the data were processed

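Single-end reads had been aligned by the authors with HTSstation (mm10), filtered for the top expressed genes in ASAP and compared with edgeR. The counter, annotation and use of strand are not given in the sources used here, and the library kits do not mark strand. The deposited mean counts average raw reads over 3 samples a genotype. The deposited normalised means were read as averages on the log2 scale (log2 CPM), which their column names do not state. The tables also hold the authors' fold changes, p-values and false discovery rates, which were not used. Total counts per sample are not given.

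Mean counts were divided by depth, the median quotient of mean count and the normalised mean taken off the log2 scale. Genes whose mean count reached 1000 were used for it (220 genes for WT.GFP+, 140 for ERα-/-.GFP+). Ratios carry Clopper-Pearson intervals and counts Poisson intervals. Exon lengths and positions came from GENCODE M21 for GRCm38 (650 of 651 genes matched by identifier) and promoters from RefSeq. Python 3.11.15 was used with scipy 1.17.1, numpy 2.4.6, matplotlib 3.10.9 and pandas 2.3.3. The ratio step was run on simulated counts that held counting error only. That run checks the arithmetic and cannot speak to the spread between samples.

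The 7 genes and all gene lists were chosen with earlier results of these data known. Named genes were the 7, the listed genes of the lists, the 5 with the nearest ratio and the neighbours in mean count. Tnfsf8, H60b, Il17f, Il23r and the motifs were chosen after their values or matches were seen. Alternatives were other scalings for depth, the normalised means, a pseudocount, a filter on low counts and another gene length, and, added after the data were seen, relative levels and positions from the normalised means.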

Additional observations from a re-analysis of the deposited data

How the results depend on the processing

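The 7 genes were higher in ERα-/-.GFP+ MECs under each of 5 alternatives, which were no scaling for depth, depth from genes with 100 or more mean reads, the difference of the normalised means, a pseudocount of 1 read and a filter at a mean count of 10 in both genotypes. Their median log2 ratio was 1.25, and 1.36 without scaling for depth. Under the other alternatives it lay between 1.23 and 1.26. A single gene moved by at most 0.11, which was Klrg1 under the normalised means (1.34) and each gene without scaling. Of all listed genes, 85 were higher, and 78 with the filter. Lengths of the longest transcript left the order of levels as it was in ERα-/-.GFP+ MECs except for Gzmb and Nkg7. With the normalised means, added after the data were seen, the log2 ratio of Nkg7 to the listed pan-leukocyte genes turned from −0.025 to 0.043, and that to the listed T-cell genes from −0.034 to 0.010, and the other 6 genes stayed above both references. Fits without each replicate could not be made from group means. No paired analysis was possible because the tables hold only group means and the genotypes share 1 replicate number. Since the tables hold only genes past the authors' thresholds, genes that changed less cannot be seen.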

Other observations

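Some higher genes outside the lists were picked after their values were seen. H60b, which encodes a stress ligand of the activating receptor NKG2D (Klrk1), had mean counts of 618 reads in WT.GFP+ MECs against 1362 in ERα-/-.GFP+ MECs, a log2 ratio of 1.03 (counting interval 0.95 to 1.11), while Klrk1 itself was in neither table. AW112010, a transcript known from activated lymphocytes, was the third most abundant of the higher genes with mean counts of 19514 and 44392 reads and a log2 ratio of 1.08 (1.06 to 1.09). No test over samples could be made for either gene.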
